A study of Mus musculus with 6 samples.

Results

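The MYC, MAX and MXD network was followed through 10 genes, Myc, Max, Mxd1, Mxd3, Mxd4, Mxi1, Mnt, Mga, Mlx and Mlxip, chosen by symbol, and all 10 are among the 18019 gene symbols measured. Polyadenylated RNA was sequenced from RAW264.7, a mouse macrophage line that derives from a tumour induced by Abelson murine leukaemia virus. Libraries of cells given LPS and TPPU (n = 3) were compared with libraries of cells given LPS without TPPU (n = 3, the control). LPS, lipopolysaccharide, is a bacterial product that both groups received, and TPPU inhibits soluble epoxide hydrolase, which degrades epoxy fatty acids. The labels give neither doses nor times. They also leave it unsaid whether replicate libraries are separate cultures, so p-values measure a spread between libraries that may be technical. The series title asks about inflammatory macrophage polarization in osteoarthritis of the jaw joint.

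The proteins of this network bind DNA in pairs through a basic helix-loop-helix leucine zipper. MYC pairs with MAX at the E-box, CACGTG, and activates genes of growth, ribosome production and the cell cycle. MXD proteins, MXI1 and MNT also pair with MAX and repress such genes through SIN3 and histone deacetylases, and MGA pairs with MAX in a Polycomb complex. A parallel arm pairs MLX with MLXIP, also called MondoA, which responds to sugar phosphates and activates Txnip. In macrophages Myc is induced early after many stimuli, and Mxd1 rises during myeloid differentiation.

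Of the 8 members tested, Myc had the largest difference between the groups on the log2(FPKM + 1) scale, with lower values in all 3 TPPU libraries. It averaged 4.42 ± 1.01 FPKM in TPPU and 7.67 ± 1.27 FPKM in control (SD, n = 3 each), where FPKM is fragments per kilobase of gene and per M (mega) of fragments sequenced. Its partner Max averaged 38.3 ± 4.59 FPKM in TPPU and 37.1 ± 1.78 FPKM in control. Of the 8 members tested 5 had a negative and 3 a positive change, where 45.6% and 54.4% of all genes tested did. No member passed the test over all genes, by limma on log2(FPKM + 1) with Benjamini-Hochberg adjustment and a threshold of 0.05. The tested members had at least 1 FPKM in at least 3 libraries, which Mxd3 and Mxd4 did not. Of 9728 genes tested 0.0% passed in either direction, and 7.89% had an unadjusted p under 0.05, as 1 member, Myc, did.

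E-boxes were looked for in the members' own promoters, because MAX and its partners bind that sequence. RefSeq promoter windows on GRCm38.p6, running from 250 bases before the start site to 50 after it, were held for 9 members in 11 windows, and Myc had none. CACGTG, which reads the same on both strands, occurred in the windows of 4 of these 9 genes, Max, Mnt, Mlx and Mxd4. Over all promoters with a window, 8.09% of genes held it, and 12.3% of the genes tested. The windows of those 4 are shown up to base 10 after the start site, with the E-box in capitals.
Max promoter, chr12:76962239-76962498, minus strand: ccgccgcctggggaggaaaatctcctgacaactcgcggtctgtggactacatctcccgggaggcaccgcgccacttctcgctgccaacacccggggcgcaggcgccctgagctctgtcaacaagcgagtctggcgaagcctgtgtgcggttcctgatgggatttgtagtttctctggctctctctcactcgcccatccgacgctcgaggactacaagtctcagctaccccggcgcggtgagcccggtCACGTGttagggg
Mnt promoter, chr11:74830674-74830933, plus strand: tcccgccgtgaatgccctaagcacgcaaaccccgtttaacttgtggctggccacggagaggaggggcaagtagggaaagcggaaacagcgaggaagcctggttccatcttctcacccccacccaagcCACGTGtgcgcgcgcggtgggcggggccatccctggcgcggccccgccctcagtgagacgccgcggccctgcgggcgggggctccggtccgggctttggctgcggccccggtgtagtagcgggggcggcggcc
Mlx promoter, chr11:101087040-101087299, plus strand: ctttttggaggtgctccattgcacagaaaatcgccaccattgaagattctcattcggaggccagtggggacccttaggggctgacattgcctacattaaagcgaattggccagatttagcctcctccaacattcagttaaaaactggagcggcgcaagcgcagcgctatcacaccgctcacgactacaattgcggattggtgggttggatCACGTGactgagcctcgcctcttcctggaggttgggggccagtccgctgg
Mxd4 promoter, chr5:34187701-34187960, minus strand: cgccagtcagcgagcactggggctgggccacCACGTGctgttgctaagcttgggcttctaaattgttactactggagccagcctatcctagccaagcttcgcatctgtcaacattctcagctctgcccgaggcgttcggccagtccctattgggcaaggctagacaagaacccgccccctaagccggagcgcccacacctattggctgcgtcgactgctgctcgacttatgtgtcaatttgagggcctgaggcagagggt
The E-box of Max begins at base -3 and spans the RefSeq start site, where -1 is the base just before it. In GENCODE M21 Max begins at base 76962201 of the minus strand, outside the printed window, so there the E-box lies upstream of the gene. That of Mlx begins at base -40, that of Mnt at -123 and that of Mxd4 at -219. Mxd1, Mxd3, Mxi1, Mga and Mlxip had no CACGTG in their windows. These matches describe the letters and say nothing of occupancy.

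The libraries differed in ways the groups do not explain. Depth was estimated from the steps between low FPKM values at 17.8 to 23.0 M (mega) fragments. Control replicate 3 and TPPU replicate 1 had the lowest mitochondrial share of FPKM, at 0.371% and 0.914%, against 1.46% to 1.85% in the other 4 libraries. The transcript mt-Co1 measured 2418, 4063 and 4833 FPKM in TPPU and 3803, 4383 and 784 FPKM in control. On the first principal component, with 52.8% of the variance, control replicate 3 lay at 31.4 and the other libraries between -14.0 and 5.02. Of 12 macrophage markers 11 averaged at least 1 FPKM, with Cd68 at 968 FPKM and Mertk at or near 0, and the highest marker of another cell type was Lum of fibroblasts at 2.18 FPKM. The summed macrophage markers lay at 2221 to 2350 FPKM in TPPU and 2114 to 2487 FPKM in control. Single markers in that sum went both ways. Adgre1 and Lyz2 averaged 269 and 326 FPKM in TPPU, against 220 and 260 FPKM in control. Every TPPU value of these genes lay above every control value, as in 7.48% of all genes tested. Cd68 and Cd14 averaged 935 and 413 FPKM in TPPU, against 1001 and 444 FPKM in control, with overlap. Ephx2, which encodes the target of TPPU, measured 0.42, 2.56 and 1.54 FPKM in TPPU and 0.865, 0.447 and 0.632 FPKM in control. A label of the TPPU samples names a table column after LIS1, and its gene Pafah1b1 measured 10.7, 13.5 and 14.2 FPKM in TPPU and 11.7, 14.2 and 6.52 FPKM in control.

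**Figure D1:**
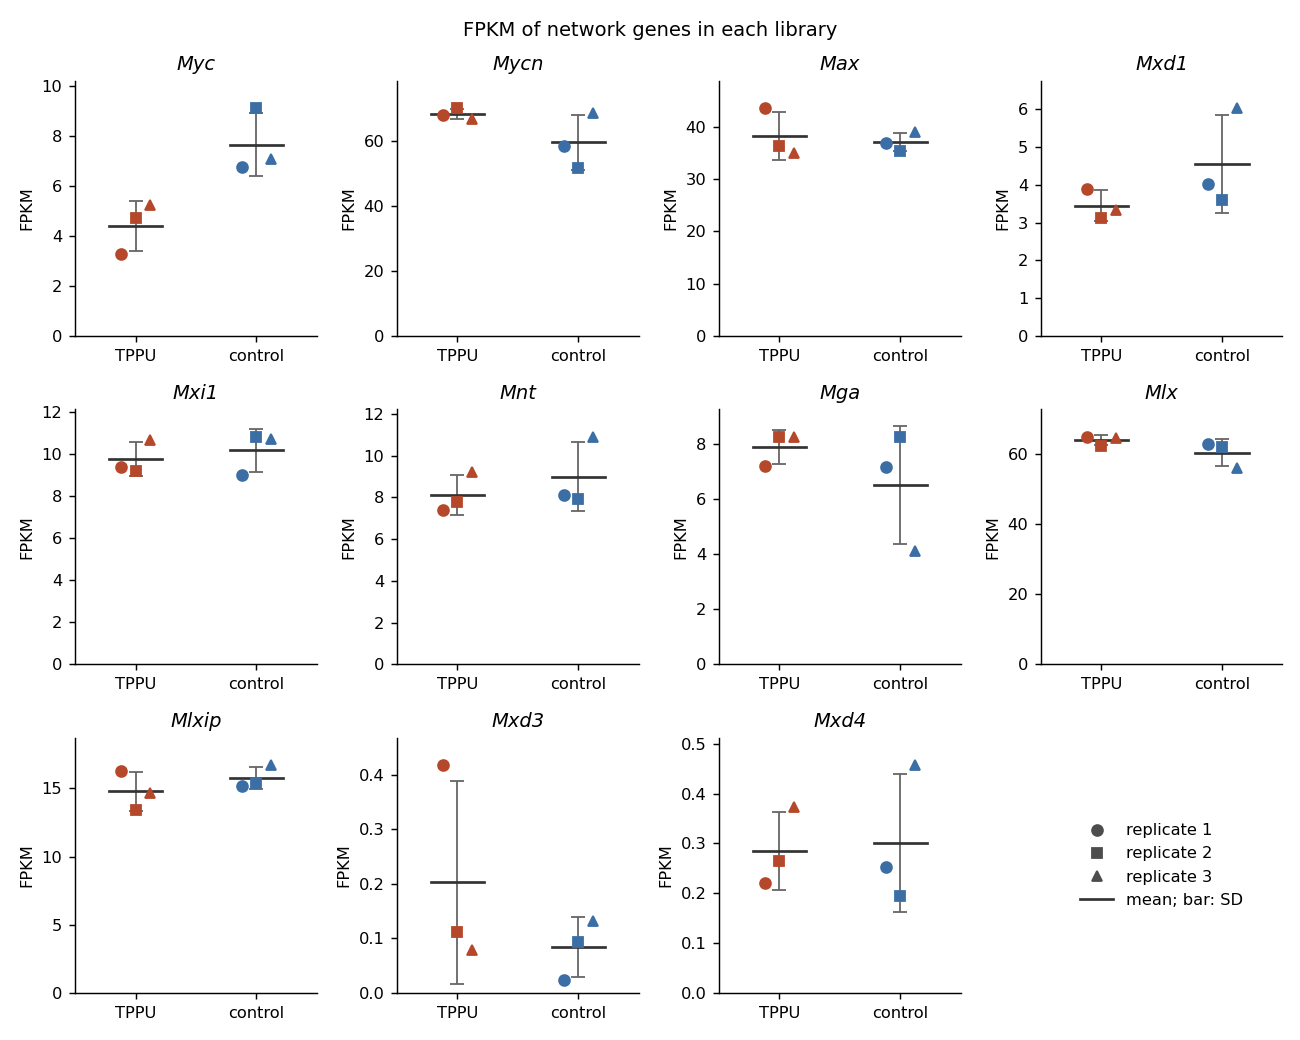
FPKM of the 10 members and of Mycn in each library (points, one shape per replicate number), with the mean (line) and SD (bar) of the 3 TPPU and the 3 control libraries; each axis starts at 0. The 3 TPPU values of Myc, up to 5.24 FPKM, lie below its 3 control values, from 6.76 FPKM, and in the other 10 panels the groups overlap.

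Myc lies on chromosome 15 (61985391 to 61990374, plus strand, mm10). It measured 3.29, 4.73 and 5.24 FPKM in TPPU replicates 1 to 3, and 6.76, 9.12 and 7.11 FPKM in control replicates 1 to 3. The groups did not overlap: TPPU replicate 1 was the lowest library and control replicate 2 the highest. Over all genes tested 7.88% had every TPPU value below every control value. The TPPU mean was 0.577 times the control mean. The log2 change was -0.68 (SE 0.17, 95% interval -1.07 to -0.30), with a limma adjusted p of 0.397 and rank 86 of 9728 by unadjusted p. These values rest on about 163 to 557 fragments a library, so counting error alone is at most 7.83% of a value. Without control replicate 3 the log2 change was -0.73, and without TPPU replicate 1 it was -0.53. In bulk RNA, fewer cells with the transcript and less of it per cell cannot be told apart.

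The paralog Mycn, on chromosome 12 (12936093 to 12941914, minus strand), is outside the 10 members but encodes a protein that also pairs with MAX. It was the more abundant MYC gene in every library, at 68.0, 70.0 and 66.9 FPKM in TPPU and 58.3, 51.7 and 68.6 FPKM in control. Control replicate 3 lay within the TPPU range, so the groups overlapped. The log2 change was 0.20 (SE 0.11, 95% interval -0.05 to 0.46, limma adjusted p = 0.664), and 0.31 without control replicate 3. The third paralog, Mycl, was listed at 0 in 4 libraries and had at most 0.0217 FPKM.

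The ratio of Mycn to Myc FPKM, computed after both genes' values were seen, was 20.6, 14.8 and 12.8 in TPPU and 8.62, 5.67 and 9.64 in control. Myc thus made up 4.62%, 6.33% and 7.26% of the summed Myc and Mycn FPKM in TPPU, and 10.4%, 15.0% and 9.40% in control. The sum itself was 71.3, 74.7 and 72.1 FPKM in TPPU and 65.1, 60.9 and 75.7 FPKM in control, and its groups overlapped.

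Max, the shared partner, lies on chromosome 12 (76937269 to 76962201, minus strand). It measured 43.5, 36.3 and 35.0 FPKM in TPPU and 36.8, 35.4 and 38.9 FPKM in control. TPPU replicate 1 was the highest library, and the other 5 lay between 35.0 and 38.9 FPKM. The log2 change was 0.04 (SE 0.11, 95% interval -0.21 to 0.29, limma adjusted p = 0.927). It was -0.05 without TPPU replicate 1, the other sign.

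Among the tested repressors that pair with MAX, Mxd1 had the most negative change. Mxd1, on chromosome 6 (86647042 to 86669161, minus strand), measured 3.90, 3.11 and 3.34 FPKM in TPPU and 4.03, 3.60 and 6.02 FPKM in control. Control replicate 3 stood above the rest, and TPPU replicate 1 lay between the other controls. The log2 change of -0.30 (SE 0.17, 95% interval -0.69 to 0.10, limma adjusted p = 0.684) was -0.12 without control replicate 3.

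Mxi1, on chromosome 19 (53310518 to 53375810, plus strand), encodes the repressor also known as MAD2. It measured 9.36, 9.20 and 10.7 FPKM in TPPU and 8.99, 10.8 and 10.7 FPKM in control, and the log2 change was -0.05 (SE 0.11, limma adjusted p = 0.907). Both groups covered nearly the same range. Mnt, on chromosome 11 (74830920 to 74845725, plus strand), encodes a broadly expressed MYC antagonist. Mnt measured 7.38, 7.77 and 9.20 FPKM in TPPU and 8.12, 7.95 and 10.9 FPKM in control. Its log2 change of -0.12 (SE 0.14, limma adjusted p = 0.828) was 0.01 without control replicate 3, its highest library.

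Mxd3 and Mxd4, the other repressors of the MXD family, were below the filter. Mxd3 was near the limit of detection, while Mxd4 held about 34 to 75 fragments a library. Mxd3 measured 0.417, 0.111 and 0.0795 FPKM in TPPU and 0.0239, 0.0937 and 0.133 FPKM in control, which corresponds to about 18, 6 and 4 fragments and 1, 5 and 6 fragments. Its difference came from TPPU replicate 1: on the log2(FPKM + 1) scale it was 0.14, and 0.02 without that library. The two-sided exact permutation test gave p = 0.5, where 3 libraries against 3 cannot give less than 0.1. Mxd4 measured 0.220, 0.264 and 0.372 FPKM in TPPU and 0.253, 0.194 and 0.457 FPKM in control (exact permutation p = 0.9). Its difference of -0.01 turned to 0.07 when control replicate 3 was left out, and to 0.02 when TPPU replicate 1 was.

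Mga, on chromosome 2 (119897228 to 119969581, plus strand), encodes the MAX partner that also carries a T-box. It measured 7.18, 8.24 and 8.24 FPKM in TPPU and 7.15, 8.25 and 4.11 FPKM in control. Control replicate 3 was far below the other 5 libraries, which lay between 7.15 and 8.25 FPKM. The log2 change of 0.29 (SE 0.21, 95% interval -0.19 to 0.76, limma adjusted p = 0.732) was 0.03 without that library. Mga has the lowest GC content of the members, 42.2% over its longest transcript of 13931 bases.

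In the MLX arm both members overlapped between the groups. Mlx, on chromosome 11 (101087277 to 101092207, plus strand), measured 65.0, 62.4 and 64.6 FPKM in TPPU and 63.1, 62.2 and 56.0 FPKM in control. Its log2 change was 0.08 (SE 0.09, limma adjusted p = 0.807), with an interval of -0.11 to 0.28, and it was 0.03 without control replicate 3, the lowest library. Mlxip, on chromosome 5 (123394798 to 123457932, plus strand), measured 16.3, 13.4 and 14.7 FPKM in TPPU and 15.2, 15.4 and 16.7 FPKM in control. Its log2 change was -0.09 (SE 0.11, limma adjusted p = 0.833), with an interval of -0.33 to 0.15. It was -0.16 without TPPU replicate 1, -0.05 without control replicate 3 and -0.02 without TPPU replicate 2. Mlxipl, which encodes ChREBP, another MLX partner, reached 0.182 FPKM at most. In GENCODE M21, 5 members overlap genes on the opposite strand: Mlx overlaps Psmc3ip, Mxd3 overlaps Prelid1, Mxd4 overlaps Gm42846, Mlxip overlaps Gm15747, and Mxi1 overlaps AC133451.2 and Gm10197. On the same strand, Max overlaps Gm47218, Mxd1 overlaps Gm44292, and Mlxip overlaps Gm42907, Gm42908 and Gm43813. No label says whether the counting used strand.

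**Figure D2:**
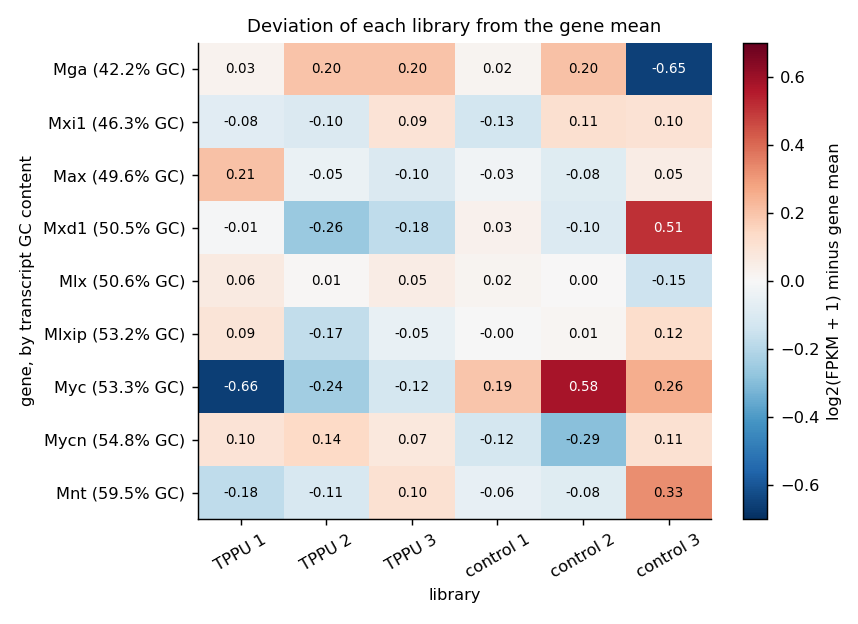
Deviation of each library from the gene's mean over all 6 libraries, in log2(FPKM + 1), for the 8 tested members and Mycn, ordered by the GC content of the longest transcript (lowest at the top). Control 3 holds the largest deviations of Mga (-0.65), Mxd1 (0.51) and Mnt (0.33), while Myc is negative in the 3 TPPU libraries and positive in the 3 controls.

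Levels per kilobase spanned a wide range among the members. Mlx was the most abundant at 56.0 to 65.0 FPKM, a range that overlaps that of Mycn. Max followed at 35.0 to 43.5 FPKM and Mlxip at 13.4 to 16.7 FPKM, each clear of its neighbours. Mxi1 at 8.99 to 10.8 FPKM lay above Mga at 4.11 to 8.25 FPKM in every library, while Mnt at 7.38 to 10.9 FPKM and Myc at 3.29 to 9.12 FPKM overlapped both genes and each other over the 6 libraries. Mxd1, at 3.11 to 6.02 FPKM, overlapped Myc and Mga. In the TPPU libraries Myc lay below every value of Mnt, Mga and Mxi1, and in the controls its range overlapped those of Mnt, Mga and Mxi1. Within each control library, though, Myc was below Mxi1. Per unit of summed FPKM of the antagonist genes Mxd1, Mxd3, Mxd4, Mxi1, Mnt and Mga, Myc stood at 0.116, 0.165 and 0.164 in TPPU and 0.237, 0.295 and 0.220 in control. The antagonist sum itself averaged 29.7 ± 1.93 FPKM in TPPU and 30.6 ± 1.90 FPKM in control, with overlap. The ratio thus mostly restates the Myc values.

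Deviations in control replicate 3 ran with GC content over all genes, with a Spearman's rho of 0.61 across genes, which are not independent replicates. The rho was -0.19 and -0.45 in control replicates 1 and 2, and 0.24, -0.29 and -0.42 in TPPU replicates 1 to 3. Among the members, Mga at 42.2% GC was low in control replicate 3 and Mnt at 59.5% was high. Mxd1, at 50.5%, had the highest deviation there, though. With a GC trend removed from each library, the log2 change was -0.66 for Myc, -0.30 for Mxd1 and 0.19 for Mga. The part of GC content in these differences was not tested further.

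**Figure D3:**
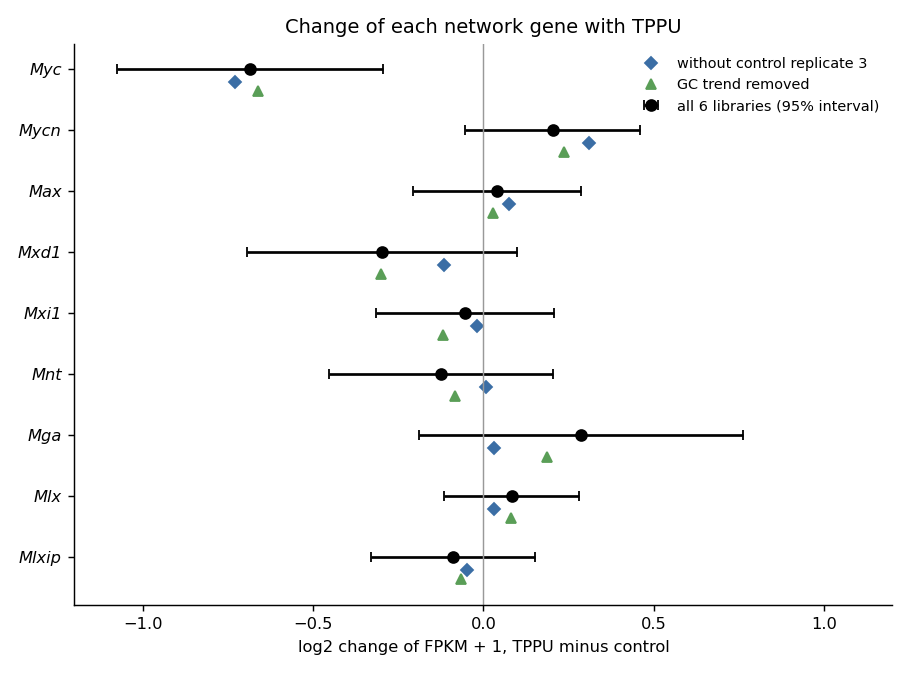
Log2 change of FPKM + 1, TPPU minus control, for the 8 tested members and Mycn from limma (circle, with its 95% interval), with the value without control replicate 3 (diamond) and with a GC trend removed (triangle). The interval of Myc, -1.07 to -0.30, is the one that does not reach 0, and the value of Mga drops to 0.03 without control replicate 3.

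The tested genes most like Myc over the 6 libraries were Csf2, Pdpn and Plk2, by the root-mean-square difference of centred log2(FPKM + 1). Csf2, the gene of the cytokine GM-CSF, differed from Myc by 0.09, against a median of 0.44 over all tested genes. Pdpn, which encodes the surface protein podoplanin, and Plk2, a polo-like kinase gene, differed by 0.12 and 0.13. Pdpn measured 5.47, 6.37 and 8.06 FPKM in TPPU and 8.40, 13.9 and 11.2 FPKM in control. Plk2 measured 80.0, 98.6 and 104 FPKM in TPPU and 115, 148 and 122 FPKM in control. For Mxd1 the nearest were Mrs2, a mitochondrial magnesium channel gene, Gm8909 and Hmgxb3, at 0.04, 0.05 and 0.05, and all 3 were highest in control replicate 3, as Mxd1 was.

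Genes known to be activated by MYC were, as a list, on the higher side with TPPU, the opposite side to Myc itself. The change of the more abundant Mycn, whose groups overlapped, was also positive (log2 change 0.20, limma adjusted p = 0.664). The list was chosen with earlier results of these data known, and its genes are not independent replicates. Of 58 listed genes 56 were tested, and none passed over all genes. The change was positive in 51 and negative in 5, with a median log2 change of 0.14, against 0.02 over all genes tested, of which 54.4% were positive. In 12 of the 56 every TPPU value lay above every control value, and in 0 below, where 7.48% of all genes tested lay above and 7.88% below. An unadjusted limma p under 0.05 was reached by 5 higher members and 0 lower ones, against 4.19% and 3.7% of all genes. The list's median deviation was 0.06, 0.06 and 0.06 in the TPPU libraries and -0.03, -0.10 and -0.06 in the controls. It was 0.12 without control replicate 3, where 47 were positive. With a trend on transcript length removed the median was 0.12, with 49 positive and an all-gene median of 0.00.

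Dkc1, which encodes the pseudouridine synthase dyskerin, had the smallest p of that list. It measured 6.36, 8.73 and 8.66 FPKM in TPPU and 6.20, 5.75 and 3.49 FPKM in control (log2 change 0.55, SE 0.20, limma adjusted p = 0.564). TPPU replicate 1 was close to the highest control, and control replicate 3 was the lowest library. Nolc1, a nucleolar chaperone gene, measured 59.9, 57.8 and 56.6 FPKM in TPPU and 45.4, 44.3 and 54.1 FPKM in control (log2 change 0.28, SE 0.10). Ran, a GTPase gene of nuclear transport, measured 133, 119 and 122 FPKM in TPPU and 107, 102 and 111 FPKM in control. Ptma, which encodes prothymosin alpha, averaged 201 ± 20.3 FPKM in TPPU and 168 ± 6.13 FPKM in control, and the groups did not overlap. Shmt1, of one-carbon metabolism, averaged 11.6 ± 0.74 FPKM in TPPU and 9.47 ± 1.06 FPKM in control. Nme1, a nucleoside diphosphate kinase gene, averaged 9.56 ± 0.40 FPKM in TPPU and 7.95 ± 0.70 FPKM in control. The nucleolar genes Nop56 and Npm1 averaged 73.0 ± 5.89 and 149 ± 31.5 FPKM in TPPU, against 62.6 ± 4.19 and 113 ± 23.8 FPKM in control, with overlap in both. Limma adjusted p of these 8 genes lay between 0.564 and 0.632.

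E-boxes were more frequent in the promoters of that list than among all genes, at 29.4% of 51 genes with a window against 12.3% of the genes tested. Within the list the median log2 change was 0.20 for the 15 tested genes with CACGTG and 0.14 for the 34 without it. Over all genes tested it was 0.01 for the 944 with CACGTG and 0.02 for the 6759 without it. None of these differences was tested.

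In the 6 lists that follow, an unadjusted limma p under 0.05 was reached by 1 lower MYC-repressed gene, 2 lower MLX and MLXIP targets, 2 higher and 1 lower coactivators, 0 turnover genes, 1 lower corepressor, and 1 higher and 2 lower genes of the MGA complex. Of all genes tested 4.19% were higher and 3.7% lower at that p, and 54.4% of all changes were positive and 45.6% negative, with a median of 0.02. Of 10 genes known to be repressed by MYC 8 were tested, with 0 passing. Their changes were 7 negative and 1 positive, with a median of -0.11. That median was -0.17 without control replicate 2 and -0.27 with sample quality weights. It was -0.08 both without control replicate 3 and with a GC trend removed. Hmox1, which encodes heme oxygenase 1, measured 487, 460 and 472 FPKM in TPPU and 560, 568 and 663 FPKM in control, with no overlap (log2 change -0.33, SE 0.09, limma adjusted p = 0.444). Ndrg1, a stress-responsive gene, averaged 42.1 ± 2.33 FPKM in TPPU and 49.4 ± 5.34 FPKM in control. The cell cycle inhibitor genes Cdkn1b and Cdkn1a averaged 6.71 ± 0.53 and 85.6 ± 5.91 FPKM in TPPU, against 7.64 ± 1.31 and 91.5 ± 0.68 FPKM in control.

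Targets of MLX and MLXIP went both ways, with 5 positive and 4 negative changes among 9 tested, a median of 0.01 and 0 passing. With single libraries left out the median ranged from -0.03 (without control replicate 1) to 0.07 (without control replicate 3, where 7 were positive). Txnip, which encodes a brake on glucose uptake and is the best known MondoA target, measured 115, 113 and 122 FPKM in TPPU and 149, 135 and 142 FPKM in control. All 3 TPPU values lay below the controls (log2 change -0.28, SE 0.08, limma adjusted p = 0.492). Pfkfb3, whose enzyme product activates glycolysis, was also separated, at 53.5, 51.2 and 55.6 FPKM in TPPU and 77.0, 76.4 and 72.1 FPKM in control (log2 change -0.48, SE 0.08, limma adjusted p = 0.233). The fatty acid synthesis genes Fasn and Acaca averaged 14.9 ± 0.91 and 5.75 ± 0.27 FPKM in TPPU, against 12.5 ± 1.78 and 4.88 ± 0.25 FPKM in control. Mlx and Mlxip themselves overlapped between the groups.

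Coactivators and partners of MYC had 12 negative and 6 positive changes among 18 tested, with a median of -0.09 and 0 passing. The median was -0.06 without TPPU replicate 3, -0.06 without control replicate 3 and -0.05 with sample quality weights. The ATPase genes Ruvbl2 and Ruvbl1 were above all controls, at 29.5 ± 0.91 and 26.2 ± 2.23 FPKM in TPPU, against 23.8 ± 2.57 and 21.6 ± 1.22 FPKM in control. The acetyltransferase gene Ep300 and the elongation kinase gene Cdk9 were below all controls, at 4.42 ± 0.35 and 30.5 ± 1.59 FPKM in TPPU, against 5.67 ± 0.77 and 35.6 ± 3.65 FPKM in control. Limma adjusted p of these 4 genes lay between 0.564 and 0.634.

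Genes listed around the turnover of MYC protein had 10 positive and 7 negative changes among 17 tested, a median of 0.01 and 0 passing. With single libraries left out the median ranged from -0.0012 (without TPPU replicate 3) to 0.04 (without control replicate 3), and with a GC trend removed it was -0.02, with 6 positive. Skp2, a ubiquitin ligase gene, measured 3.63, 3.46 and 3.53 FPKM in TPPU and 4.39, 4.03 and 4.40 FPKM in control, without overlap (log2 change -0.22, SE 0.11, limma adjusted p = 0.638). Aurka, whose kinase stabilizes N-MYC, averaged 15.6 ± 3.11 FPKM in TPPU and 12.4 ± 0.99 FPKM in control. Fbxo28, a ubiquitin ligase gene, averaged 12.5 ± 0.79 FPKM in TPPU and 10.9 ± 1.14 FPKM in control. Usp28, a deubiquitinase gene, averaged 12.2 ± 1.45 FPKM in TPPU and 14.2 ± 1.76 FPKM in control.

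Corepressors of MXD and MNT had 10 positive and 6 negative changes among 16 tested, a median of 0.05 and 0 passing. That median was 0.0013 without TPPU replicate 3, 0.02 without control replicate 2, 0.02 without control replicate 3 and 0.09 without control replicate 1. With a GC trend removed it was 0.0022, with 8 positive, and with sample quality weights -0.0040. Hdac1, a histone deacetylase gene, measured 19.7, 20.9 and 18.02 FPKM in TPPU and 22.7, 21.6 and 26.1 FPKM in control, without overlap (log2 change -0.25, SE 0.11, limma adjusted p = 0.627). The histone chaperone genes Rbbp7 and Rbbp4 and the deacetylase gene Hdac2 had positive changes with control replicate 3 as the lowest library. Rbbp7 stood at 12.9 FPKM there, against 33.1 to 54.7 FPKM in TPPU and 36.3 and 44.6 FPKM in the other controls. Of 13 genes of the MGA Polycomb complex 7 changes were positive and 6 negative, with a median of 0.00 and 0 passing, and with single libraries left out the median ranged from -0.02 (without control replicate 2) to 0.05 (without TPPU replicate 1). Rybp measured 13.1, 10.7 and 11.3 FPKM in TPPU and 13.6, 14.8 and 17.5 FPKM in control (log2 change -0.36, SE 0.12, limma adjusted p = 0.564). Ring1 and Cbx1, of the same list, averaged 6.46 ± 1.30 and 14.3 ± 0.29 FPKM in TPPU, against 4.74 ± 0.74 and 11.2 ± 2.81 FPKM in control. Cbx1 stood at 7.99 FPKM in control replicate 3, against 13.0 and 12.6 FPKM in the other controls.

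**Figure D4:**
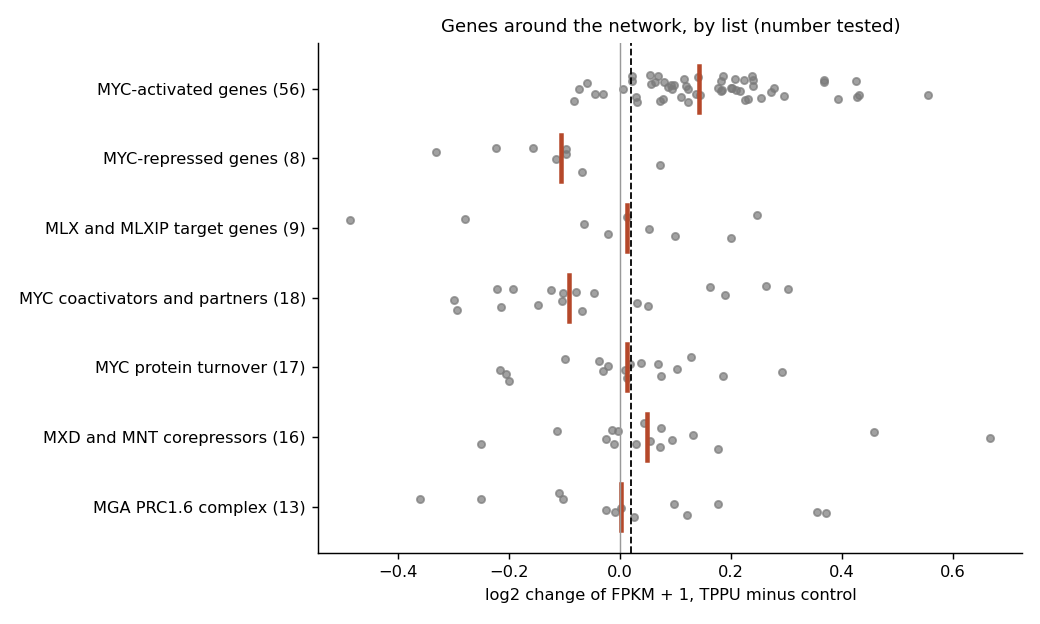
Log2 change of FPKM + 1, TPPU minus control, of each tested gene (points) in 7 lists around the network, with the list's median (bar) and the median of all genes tested (dashed line, 0.02). The MYC-activated genes lie mostly to the right of 0 (51 of 56) and the MYC-repressed genes to the left (7 of 8), and no gene shown passed the test over all genes. The lists were chosen with earlier results of these data known.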

How the data were processed

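Poly(A) RNA of 6 RAW264.7 libraries was sequenced with dUTP strand marking, per the labels' protocols. The authors deposited 1 table of FPKM per gene symbol; its name gives the unit, which the values do not contradict. Per the submitters' processing notes the build was mm10. The aligner, counter and annotation were not given in the sources used here. Library names matched columns to samples.

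Members and gene lists were chosen with earlier results of these data known. The test covered 9728 genes that reached 1 FPKM in 3 or more of the 6 libraries and left out 8291. Groups were compared by limma 3.58.1 (R 4.3.3), TPPU minus control, on log2(FPKM + 1) with a mean-variance trend, two-sided, with Benjamini-Hochberg adjustment over all genes tested. Fold changes on that scale understate the change of low genes. Members under the filter got an exact permutation test, two-sided. Named genes were the members, the 8 MYC-activated genes and the 4 genes of each other list with the smallest p, the 3 genes nearest to Myc and to Mxd1, and Ephx2, Pafah1b1 and mt-Co1.

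Fragments were estimated from exon-union lengths in GENCODE M21, with which 93.2% to 94.5% of low values came within 0.1 of a whole number of fragments (20% by chance). The floor of 3 fragments in 1 kb is 0.131 to 0.168 FPKM, for counting error alone. GC content and length came from the longest GENCODE M21 transcript, held for 97.9% of tested genes. Positions are 1-based. The fit was tested on simulated data, with independent normal values at each gene's own mean and spread. At the same threshold it recovered 34.3% of 1.5-fold, 74.6% of 2-fold and 97% of 4-fold changes, so it misses many small ones. Alternatives were pseudocounts, filters, scalings, variance settings, sample weights, a GC trend, a replicate block and each library left out. A length trend and the removal of both libraries with low mitochondrial share were added after seeing the data. Python 3.11.15, numpy 2.4.6, pandas 2.3.3 and matplotlib 3.10.9 were used.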

Additional observations from a re-analysis of the deposited data

How the results depend on the processing

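The difference in Myc kept its direction under all 20 alternatives, with log2 changes from -0.79 to -0.53 and limma adjusted p from 0.073 (sample quality weights) to 0.908 (without TPPU replicate 2). No alternative called any of the 8 tested members. Mycn stayed positive under the same 20, from 0.11 to 0.31. Mga, Mlx and Mlxip also kept their sign under 20 alternatives, and Mxd1 under the 19 that tested it. Mxd3 stayed positive under the 7 that gave it a value. The small differences of Max, Mxi1, Mnt and Mxd4 changed sign under some alternatives. Max was -0.0089 with the length trend removed and -0.018 without both control replicate 3 and TPPU replicate 1, and ranged from -0.053 (without TPPU replicate 1) to 0.0998 with single libraries left out. Mxi1 was 0.042 with sample quality weights and 0.0067 without both libraries, and -0.133 to -0.013 with single libraries left out. Mnt was 0.066 without both libraries and ranged from -0.208 to 0.0080 (without control replicate 3), and Mxd4 from -0.074 to 0.070 (without control replicate 3). The cause of these changes was not tested.

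Over all genes, sample quality weights called 89 higher and 80 lower. Those weights were 3.84, 0.826 and 0.191 for control replicates 1 to 3, so control replicate 1 counted most in its group. They were 0.715, 2.01 and 1.15 for TPPU replicates 1 to 3. Removal of the GC trend called 1 lower, and leaving out both libraries called 29 higher and 10 lower. Leaving out single libraries called 0 to 5 higher and 0 to 1 lower. The median of the MYC-activated list was 0.11 with sample quality weights and 0.12 with the length trend removed, and 0.12 to 0.17 with single libraries left out. That of the MYC-repressed list was -0.27 with sample quality weights and -0.171 to -0.077 with single libraries left out. That of the MGA Polycomb complex was -0.020 with quantile normalization, -0.029 with the GC trend removed, with or without the replicate block, 0.056 without both libraries and -0.025 to 0.050 with single libraries left out.

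Deviations of same-numbered libraries from their group means correlated across genes at -0.30, 0.15 and -0.40. Deviations within a group are not independent of each other, so these values cannot decide whether same-numbered libraries were paired. With the replicate number as a block the Myc change of -0.68 had a limma adjusted p of 0.616, 0 genes were called, and no library correlated best with its own number. Depth limits Mxd3 and Mxd4 most, with at most 18 and 75 fragments a library.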
